A study of Mus musculus with 50 samples.

Results

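The macrophage segments described here are 8 of the 50 samples of the series: CD68+ segments of peri-injured regions 5, 6, 7 and 15 in the lung section of a young wild type mouse after ozone, and of healthy regions 8, 10, 11 and 12 in the section of a young wild type mouse kept in filtered air. They were taken by region type, genotype, exposure and stain as the labels give them, out of 24 CD68+ segments and 48 captured segments in all; 2 samples are no template controls. Injured regions were left out of the comparison. Both mice are labelled SP-C wild type, where SP-C is surfactant protein C, made by alveolar type 2 cells, and both were 12 weeks old. The ozone mouse breathed 0.8 ppm ozone for 3 h and its lung was taken 72 h later. Each section carries 1 study number, taken as 1 animal, so the 4 regions of a section show the spread within an animal and no test across animals is possible. For the air samples the treatment field reads ozone, against titles and a time point that read air, which were taken as correct. All mice were kept in a germ free facility. Also used were the CD45- segments of the same 8 regions, the 4 injured CD68+ segments of the wild type ozone section, and 3 peri-injured CD68+ segments each of a 12-week-old and an 80-week-old mouse labelled SP-CI73T mutant, both after the same ozone exposure. No air section of mutant mice was analysed here, and the mutant sections were collected on a plate other than that of the wild type ones.

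CD68 is a protein of endosomes and lysosomes that is abundant in macrophages, and CD45 is found on nearly all leukocytes. The lung holds alveolar macrophages, which clear inhaled material and surfactant from the airspaces, and interstitial macrophages. Ozone is an oxidant gas that injures airway and alveolar lining cells, and macrophages, both resident and newly recruited from blood monocytes, are known to take part in the response. In GeoMx profiling, probes bound to RNA in a stained section carry barcodes that are released by light from a chosen area and then sequenced. A segment is the part of a region that carries a given stain: here the CD68+ macrophage area, or the CD45- area of non-immune cells. The sources used here do not give how regions were chosen as peri-injured or healthy. The stains set the segments, so neither marker is a finding. The probe barcodes are listed as RTS numbers, and none of 20175 matched a gene name in the reference tables at hand. Genes and pathways are therefore not named, and the label macrophage could not be checked against marker genes.

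The CD68+ segments held 70051, 43955, 49027 and 47989 counts in peri-injured regions 5, 6, 7 and 15, against 58042, 41980, 24253 and 38785 counts in air regions 8, 10, 11 and 12. The ranges overlap, and air region 11 is the shallowest segment. The number of identifiers with a count, 14885 to 17455 in peri-injured and 11259 to 16711 in air segments, overlapped as well. At the depth of air region 11, the expected number was 11221 ± 44.3 in peri-injured and 11433 ± 176 in air segments (SD, n = 4 regions each), and the highest peri-injured value, 11257, stood just below the lowest air value, 11259. At the lower depth of 12126 counts the groups overlapped. The no template control of the wild type plate held 229 counts, at most 5 for any identifier.

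The CD68+ area was 38.0%, 34.02%, 25.8% and 25.8% of the captured area in peri-injured regions 5, 6, 7 and 15, against 49.2%, 29.0%, 22.0% and 52.0% in air regions 8, 10, 11 and 12. Air regions thus held both the highest shares and the lowest, and the groups overlapped. Counts per unit of segment area were 5.37 ± 0.567 in peri-injured and 5.20 ± 1.54 in air CD68+ segments (SD, n = 4 regions each; the worksheets print no area unit), and these overlapped too. In segments of bulk tissue, fewer cells of a type and less RNA per cell cannot be told apart.

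The question was which macrophage transcripts differ next to an ozone injury from those of an unexposed lung. Levels are counts per 1e+06 counts of a segment (CPM) after TMM scaling, which sets the middle of the identifiers level between segments. Of 20157 identifiers with a count in the 8 segments, 330 were abundant enough to compare (about 218 CPM or more in at least 4 segments), and they held 22.9% of all counts. An identifier was called where the group means of log2 CPM were at least 1 apart and all 4 regions of one section lay beyond all 4 of the other. In peri-injured segments 14 identifiers were called higher, which is 4.24% of the 330, and 8 lower, which is 2.42%; together they are 6.67%. The prior count, added to each count before the log, was 2, and with 10 in its place 10 identifiers were called; with no filter on level 146 of 20157 were. Regions lay apart at any size of difference for 62 identifiers, or 18.8%, with 33 higher and 29 lower. Of these, 40 differed by less than 1, and 5 further identifiers differed by at least 1 with regions that overlapped.

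Most of the compared identifiers differed little. For 232 of 330 the log2 difference was under 0.5 in size, and the quartiles were -0.34 and 0.34. The SD of log2 CPM between regions of one section had a median of 0.28 in peri-injured and 0.35 in air segments. With segments scaled by their total counts in place of TMM, the median difference of the 330 moved to 0.12 and the split of the 22 calls to 18 higher and 4 lower. The balance of directions therefore depends on the scaling, and the differences given are relative to the middle of the identifiers compared.

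**Figure D1:**
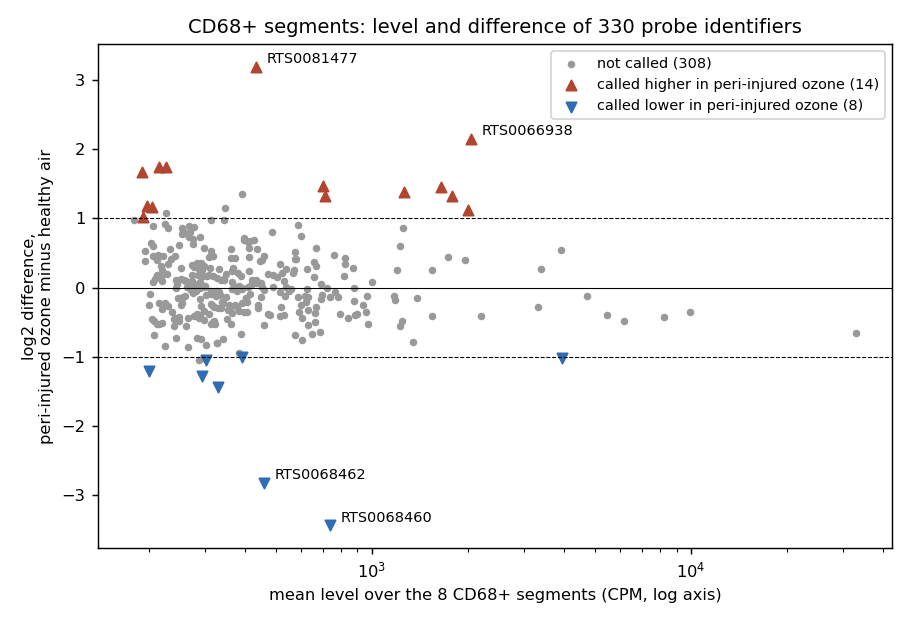
Each point is 1 of 330 probe identifiers; the x axis is its mean level over the 8 CD68+ segments (CPM, log axis) and the y axis its log2 difference, peri-injured ozone minus healthy air. Red triangles are the 14 called higher and blue triangles the 8 called lower, dashed lines mark a difference of 1 in size, and the 4 labelled identifiers stand furthest from 0 at 3.19, 2.16, -2.83 and -3.44.

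RTS0081477 was the identifier with the largest difference upwards. It had 52, 42, 49 and 32 counts in peri-injured regions 5, 6, 7 and 15, against 5, 1, 0 and 5 counts in air regions 8, 10, 11 and 12. Every peri-injured region was far above every air region, where the signal was at a few counts. Its level was 804 ± 161 CPM in peri-injured segments, against 62.9 ± 60.8 CPM in air segments (SD, n = 4 regions each), a log2 difference of 3.19 (1.89 with a prior count of 10 and 4.03 with 0.5). From the summed counts, 175 in peri-injured and 11 in air segments, the ratio was 11.1 with an exact 95% interval of 6.06 to 22.7. This interval, like the others given, covers counting error only.

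RTS0066938 was higher at an abundant level. It had 252, 159, 182 and 152 counts in peri-injured regions 5, 6, 7 and 15, against 37, 27, 19 and 27 counts in air regions 8, 10, 11 and 12. The air regions were close to each other, and the lowest peri-injured region, at 2971 CPM, stood well above the highest air region, at 772 CPM. Its mean was 3365 ± 267 CPM in peri-injured segments, against 721 ± 37.5 CPM in air segments (SD, n = 4 regions each), a log2 difference of 2.16 and a ratio of summed counts of 4.73 (exact 95% interval 3.87 to 5.83).

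RTS0068460 and RTS0068462 were at a few counts in the peri-injured macrophage segments and well above that in air. RTS0068460 had 6, 7, 1 and 5 counts in peri-injured regions 5, 6, 7 and 15, against 121, 27, 40 and 37 counts in air regions 8, 10, 11 and 12. RTS0068462 had 5, 4, 5 and 2 counts in the same peri-injured regions, against 75, 16, 25 and 21 counts in the same air regions. In both, air region 8 was the highest and no region overlapped. RTS0068460 averaged 88.1 ± 54.9 CPM in peri-injured segments, against 1388 ± 680 CPM in air segments (SD, n = 4 regions each), a log2 difference of -3.44 (-2.33 with a prior count of 10 and -3.92 with 0.5). Its summed counts were 17.0-fold lower in peri-injured segments (exact 95% interval 10.6 to 28.7). RTS0068462 averaged 73.2 ± 25.8 CPM in peri-injured segments, against 845 ± 440 CPM in air segments (SD, n = 4 regions each), a log2 difference of -2.83 (-1.79 and -3.26 with these prior counts), and its summed counts were 12.3-fold lower (7.29 to 22.1).

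These 2 identifiers had a similar proportion to each other in both segment types and both lungs. RTS0068462 made up 45.7% of the counts of the pair in peri-injured CD68+ segments (16 of 35 counts in sum, exact 95% binomial interval 28.8% to 63.4%) and 37.8% in air CD68+ segments (32.8% to 43.1%). In the CD45- segments it made up 37.2% in peri-injured (32.9% to 41.7%) and 35.8% in air regions (30.7% to 41.1%). The intervals overlap, and the share did not differ detectably at this depth.

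**Figure D2:**
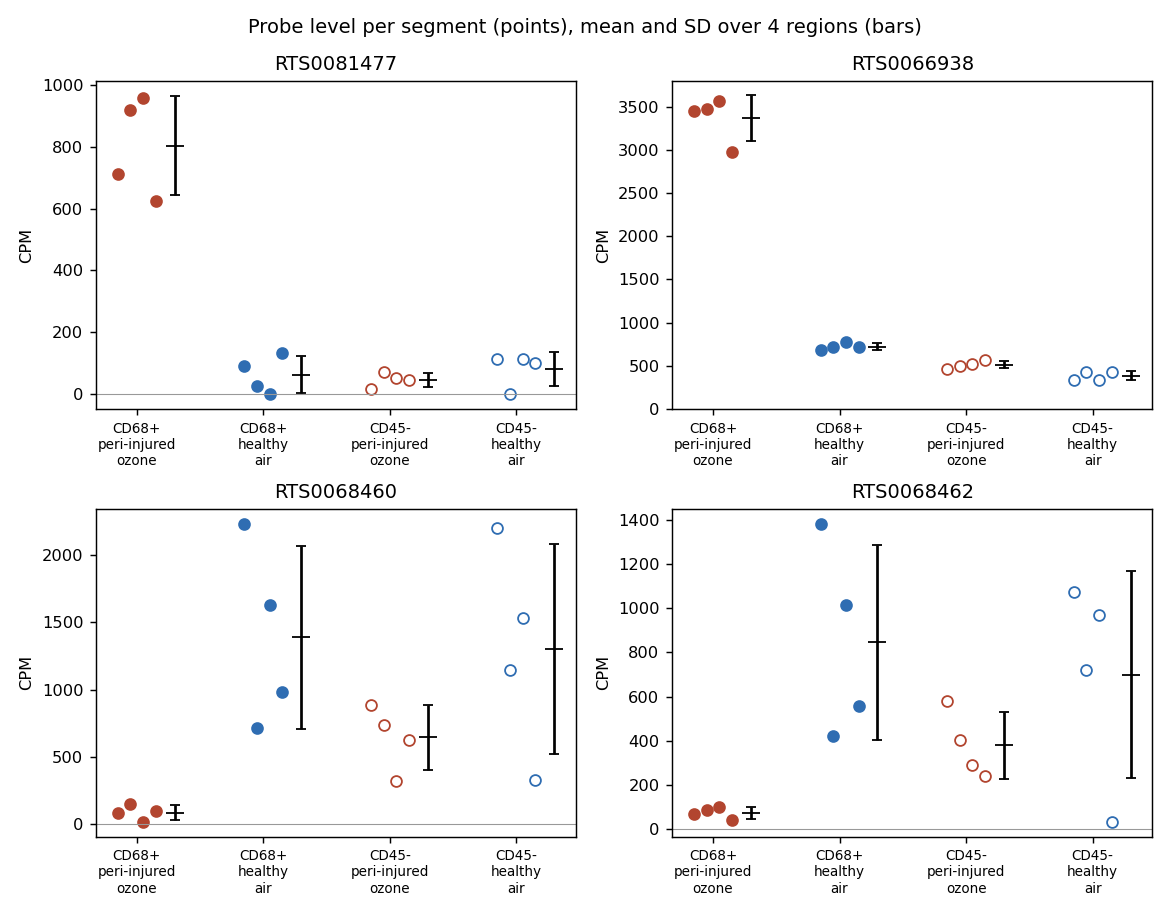
Levels in CPM (y axis) of the 4 named identifiers in CD68+ segments (filled points) and CD45- segments (open points) of peri-injured ozone regions (red) and healthy air regions (blue), with 1 point per region and the mean and SD over 4 regions in black. In CD68+ segments RTS0081477 and RTS0066938 are higher in every peri-injured region and RTS0068460 and RTS0068462 lower, while the CD45- points of each identifier overlap or lie closer together.

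The other 12 identifiers called higher had log2 differences of 1.01 to 1.75, with mean levels of 268 to 2761 CPM in peri-injured and 72.4 to 1238 CPM in air segments. The other 6 called lower had differences of -1.44 to -1.01, with means of 106 to 2601 CPM in peri-injured and 294 to 5291 CPM in air segments. The 4 named identifiers were picked for the size of their difference, so their larger size beside the other calls follows largely from that choice. The filter bears on these counts: 7 of the 14 had no air segment at its level and 3 of the 8 no peri-injured segment. These entered through the section where they were high. For 7 of the 8, fewer than 4 peri-injured segments were at its level, so air segments were needed to pass. RTS0081477 (at most 133 CPM in air segments) is among those with none. So are RTS0068460 and RTS0068462 (at most 153 and 97.9 CPM in peri-injured segments). Of the 22, 8 had at least 10 counts in each of the 8 segments. Only 2 of the 22 had a count in the no template control, 1 each. Of the calls, 18 were also made in each of the 8 repeats that left out 1 region. Leaving out a region can hardly make separate regions overlap, so these repeats bear mainly on the size of the difference and the filter.

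**Figure D3:**
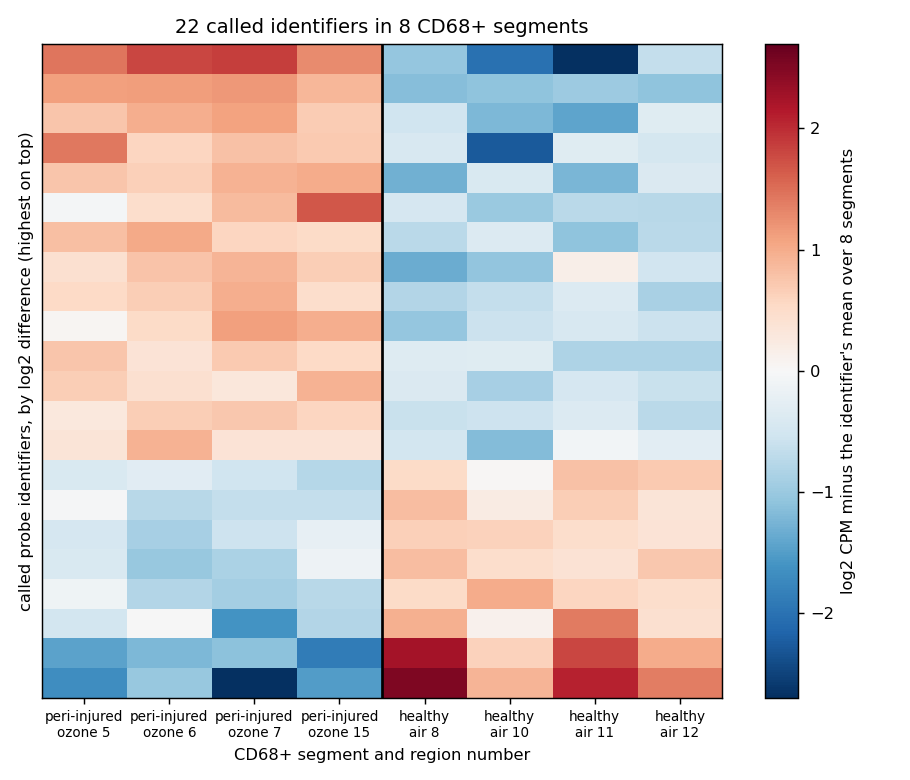
Each row is 1 of the 22 called identifiers and each column a CD68+ segment, with the 4 peri-injured ozone regions left of the line and the 4 healthy air regions right of it; colour is log2 CPM less the identifier's mean over the 8 segments. The upper 14 rows are higher and the lower 8 lower in every peri-injured segment, as the rule for a call requires.

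The 3 most abundant identifiers were not called. RTS0076370 alone held 2268, 1106, 1127 and 1280 counts in peri-injured regions 5, 6, 7 and 15, against 2544, 1231, 1111 and 1379 counts in air regions 8, 10, 11 and 12. Its level was 25575 ± 3835 CPM in peri-injured segments, against 40307 ± 6874 CPM in air segments (SD, n = 4 regions each), and every peri-injured region lay below every air region, with a log2 difference of -0.65. RTS0067799 stood at 8717 ± 934 CPM in peri-injured segments, against 11190 ± 1005 CPM in air segments, and RTS0067777 at 7012 ± 391 and 9490 ± 1121 CPM (SD, n = 4 regions each). All 3 had lower means in peri-injured segments by less than the 2-fold that a call needs, and in none of them did regions of the sections overlap.

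RTS0076055, named from earlier results of these data in injured regions of mutant lungs, was low next to the injury in the wild type lung. It had 0, 0, 3 and 5 counts in peri-injured regions 5, 6, 7 and 15, against 7, 8, 1 and 15 counts in air regions 8, 10, 11 and 12. The groups overlap, and the identifier was too rare in these segments to be compared. Its sum was 8 counts in peri-injured and 31 counts in air segments, a ratio of 0.180 (exact 95% interval 0.0716 to 0.401). In the CD68+ segments of the injured wild type regions its level was 748 ± 1005 CPM (SD, n = 4 regions), most of it from region 9. It was not low in peri-injured CD68+ segments of the mutant lungs. There it stood at 969 ± 907 CPM in the young and 505 ± 224 CPM in the old mouse (SD, n = 3 regions each). The wild type air segments stood at 195 ± 153 CPM (SD, n = 4 regions). In CD45- segments, where it was kept, its log2 difference was -1.48, with regions that overlapped.

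Over the compared identifiers, which include the called ones, segments of one section were mostly closer to each other than to the other section. The median size of the log2 difference between 2 segments, over the 330 identifiers, was 0.27 to 0.32 within the peri-injured regions, 0.31 to 0.44 within the air regions and 0.37 to 0.51 between the sections. The ranges within air and between sections overlap: air region 11 was 0.44 from air region 10 and 0.39 from peri-injured region 5. The nearest segment was of the same section for 8 of 8 segments. The spread over counting error, as chi-square per degree of freedom, was 1.60 among peri-injured and 1.64 among air segments, and 3.11 over all 8. No 2 regions of a section fell to counting error alone, the lowest of 12 pairs being at 1.17.

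The CD45- segments of the same regions show whether a difference was also present in non-immune tissue. They held 103077 to 118350 counts in peri-injured and 32705 to 54656 counts in air regions, ranges that do not overlap, and the part of this depth gap in the results was not tested. Of 746 identifiers kept there, 25 were called higher and 13 lower in peri-injured regions, together 5.09%. Without air region 8, 10, 11 or 12 the number called was 75, 85, 78 or 77, of 1607 to 1637 identifiers kept; without a peri-injured region it was 32 to 37, of 469 to 489 kept. With a prior count of 10 it was 16 of 746, and with a mean of at least 200 CPM as the filter 21 of 330.

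The largest CD45- difference was that of RTS0081052, with 37, 54, 41 and 30 counts in peri-injured regions 5, 6, 7 and 15, against 0, 4, 1 and 0 counts in air regions 8, 10, 11 and 12 (log2 difference 3.11). RTS0068724 had 46, 49, 34 and 41 counts in the same peri-injured regions, against 1, 0, 1 and 3 counts in the air regions (2.89). Both were close to absent from the CD45- segments of the air lung, at most 90.0 and 99.9 CPM. They thus passed the filter only through the peri-injured section, where they were high and the segments deeper. How many other CD45- calls entered through 1 section was not counted. RTS0068682 was lower in peri-injured regions, at 233 ± 99.0 CPM, against 655 ± 147 CPM in air regions, and RTS0061870 had a log2 difference of -1.40.

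Of the 22 identifiers called in CD68+ segments, 14 were abundant enough to compare in CD45- segments, and 3 were called in both, all of them higher. These 3 are 21.4% of the 14, beside 17 CD45- calls among all 290 identifiers kept in both segment types. They are 17.6% of those 17, beside 14 CD68+ calls among the same 290. Over all calls of each segment type these 3 are 13.6% of the CD68+ and 7.89% of the CD45- calls. For the 9 called higher in CD68+ segments and kept in both, the median log2 difference was 1.33 in CD68+ and 0.57 in CD45- segments, where the 9 ran from 0.04 to 2.26. For the 5 called lower it was -1.21 in CD68+ and -0.28 in CD45- segments, where the 5 ran from -0.80 to 0.33. The CD68+ comparison chose these identifiers, so these medians are a description.

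RTS0081477 was not among the identifiers kept in CD45- segments. It had 2, 8, 6 and 5 counts there in peri-injured regions 5, 6, 7 and 15, against 4, 0, 6 and 3 counts in air regions 8, 10, 11 and 12, a ratio of summed counts of 0.570 (exact 95% interval 0.273 to 1.24). The large difference of this identifier in macrophage segments was thus not seen in the tissue beside them. RTS0066938 stood at 511 ± 41.7 CPM in peri-injured CD45- segments, against 384 ± 53.7 CPM in air CD45- segments (SD, n = 4 regions each), a log2 difference of 0.40, and the regions did not overlap there either. RTS0068460 stood at 645 ± 239 CPM in peri-injured CD45- segments, against 1303 ± 779 CPM in air CD45- segments, and RTS0068462 at 379 ± 152 and 699 ± 468 CPM (SD, n = 4 regions each), and in both the regions overlapped.

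**Figure D4:**
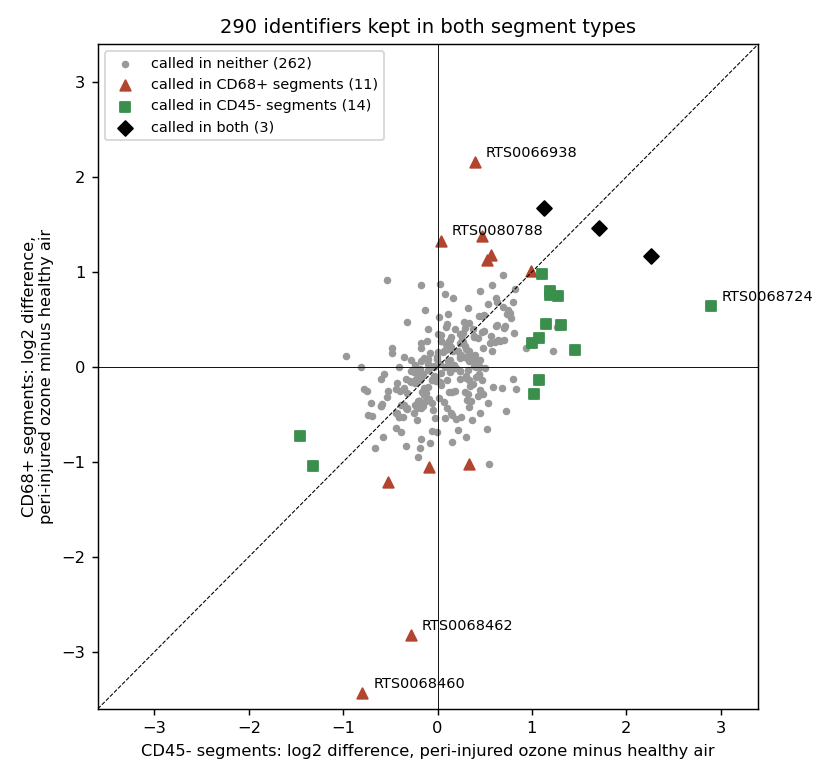
Each point is 1 of 290 identifiers kept in both segment types; the x axis is the log2 difference, peri-injured ozone minus healthy air, in CD45- segments and the y axis that in CD68+ segments, with the line of equal differences dashed. Red triangles are called in CD68+ segments alone, green squares in CD45- segments alone and the 3 black diamonds in both; RTS0066938 (2.16 and 0.40) and RTS0068460 (-3.44 and -0.80) lie far from the line.

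Whether the difference itself differed between macrophage and non-immune segments was read from the log2 ratio of CD68+ to CD45- within each region. The segment types were scaled separately, so only the contrast between sections is compared. By the same rule, the ratio was higher in peri-injured regions for 3 of 290 identifiers and lower for 10, together 4.48%. Without air region 8, 10, 11 or 12 the number called was 18, 28, 24 or 22, of 331, 364, 364 or 365 identifiers kept. With a prior count of 10 it was 5, and with no pairing of the segments by region (no replicate block) 3, both of 290. The unpaired rule takes the most extreme ratios that any CD68+ and CD45- segments of a section could form. It is therefore stricter and can only lower the count.

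RTS0066938 had log2 ratios of 2.83, 2.74, 2.74 and 2.35 in peri-injured regions 5, 6, 7 and 15, against 0.99, 0.74, 1.17 and 0.73 in air regions 8, 10, 11 and 12. The ratio was higher by 1.76 in the ozone lung, with no overlap. RTS0080788 had log2 ratios of 2.35, 2.31, 2.45 and 1.79 in peri-injured regions, against 0.68, 0.94, 1.25 and 0.86 in air regions. Its log2 difference, peri-injured minus air, was 1.33 in CD68+ and 0.04 in CD45- segments, so nearly all of its contrast lay in the macrophage segments. Its CD68+ level was 2561 ± 415 CPM in peri-injured segments, against 994 ± 162 CPM in air segments (SD, n = 4 regions each).

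Among calls above the median level, RTS0068460 and RTS0068462 had the most negative contrasts, at -2.64 and -2.54. For RTS0068460 the log2 ratios were -2.87, -1.97, -2.49 and -2.22 in peri-injured regions 5, 6, 7 and 15, against 0.03, -0.64, 0.10 and 1.52 in air regions 8, 10, 11 and 12. Every peri-injured ratio was below all air ratios. For RTS0068462 the log2 ratios were -2.45, -1.73, -1.16 and -1.70 in the same peri-injured regions. They were 0.38, -0.68 and 0.09 in air regions 8, 10 and 11. Air region 12 had a log2 ratio of 3.35, from 1 count in its CD45- segment, and the size of this contrast leans on it. Of the 10 identifiers with a lower ratio, 2 were called lower in CD68+ segments, 5 were called higher in CD45- segments and 3 were called in neither.

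The called identifiers were also followed in CD68+ segments that played no part in calling them, on the same scale. The 14 called higher had a median level of 922 CPM in peri-injured, 1995 CPM in injured and 222 CPM in air segments of the wild type lungs. Injured region 9 had the lowest median of the injured segments, at 626 CPM, and the other 3 were between 1591 and 2296 CPM. In peri-injured segments of the mutant lungs the median was 396 CPM in the young and 223 CPM in the old mouse, close to the air level in the old one. The 8 called lower had a median of 157 CPM in peri-injured, 145 CPM in injured and 519 CPM in air segments of the wild type lungs. In peri-injured segments of the mutant lungs they stood at 660 CPM in the young and 544 CPM in the old mouse, near the air level, with young region 4 at 221 CPM below the other mutant segments. Old region 7, at 335 CPM, also lay below every air segment. Over all 330 identifiers the medians of these 5 groups lay between 351 and 371 CPM. The injured regions share the ozone animal with the peri-injured ones, and in the mutant lungs genotype and collection plate cannot be told apart.

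**Figure D5:**
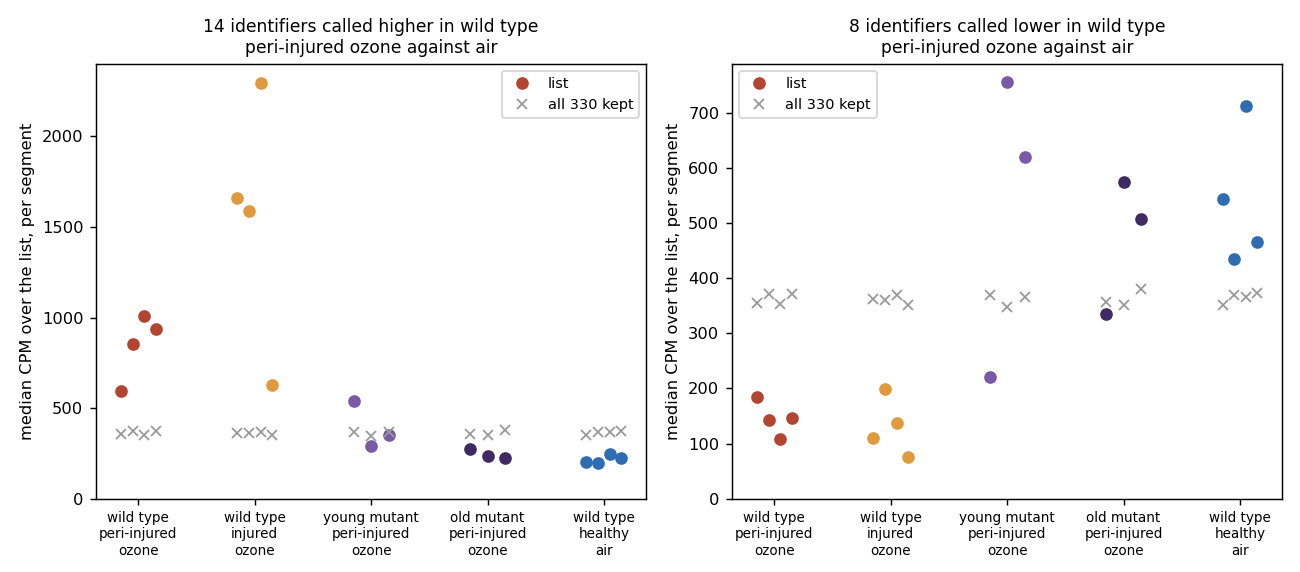
Median level in CPM (y axis, from 0) of the 14 identifiers called higher (left) and the 8 called lower (right), with 1 coloured point per CD68+ segment and grey crosses for all 330 identifiers; wild type peri-injured and air segments are those that chose the lists. Injured segments of the wild type ozone lung lie with or beyond the peri-injured ones, and mutant peri-injured segments lie nearer to air except for young region 4, at 540 CPM on the left and 221 CPM on the right.

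The 4 named identifiers differed in this respect. RTS0081477 stood at 1982 ± 1022 CPM in injured wild type segments (SD, n = 4 regions), and at 156 ± 84.9 CPM in young and 75.9 ± 36.7 CPM in old mutant peri-injured segments (SD, n = 3 regions each). RTS0066938 stood at 3406 ± 792 CPM in injured wild type segments, at its peri-injured level, and at 1554 ± 261 CPM in young and 689 ± 89.4 CPM in old mutant peri-injured segments. The mean of the young mutant lung was thus between those of the wild type ozone and air lungs for both. For RTS0066938 its values overlapped neither. For RTS0081477 its segments had 2, 3 and 9 counts, or 98.2, 116 and 253 CPM, and overlapped the air values of 0 to 133 CPM. RTS0068460 stood at 67.1 ± 42.7 CPM and RTS0068462 at 58.7 ± 32.1 CPM in injured wild type segments, as low as next to the injury. In mutant peri-injured segments they varied widely, from 98.2 to 2709 CPM (young) and from 335 to 2694 CPM (old) for RTS0068460.

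Counts far above the rest in a single segment were found for 15 identifiers with at least 50 counts in the 8 segments, of which 1 segment held at least 80%. They were spread over 9 cases in peri-injured and 6 in air segments, with at least 1 in each of the 8 segments, and made up 0.382% of all counts. None of the 15 was among the 330 compared. In peri-injured region 7, RTS0070823 had 241 and RTS0068006 had 173 counts in the CD68+ area, against at most 5 and 2 counts in any of the other 7 CD68+ segments. The CD45- segment of the same region held at most 19 counts of any of the 15.

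At the other end of the range, 59 of 20157 identifiers had a count in all 4 peri-injured and in no air CD68+ segment, with at most 12 counts in sum. The reverse held for 8 of the 20157, with at most 9 counts in sum. The peri-injured segments were deeper in sum, at 211022 counts, against 163060 counts in air segments, and at these counts no size of difference can be given.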

How the data were processed

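Raw counts of probe barcodes per segment were deposited by the authors, made with GeoMx NGS Pipeline 2.3.4 per the file headers, with repeated reads of a molecule removed (92.45% to 94.59% of reads in the 8 CD68+ segments). Barcodes not listed were set to 0. Areas come from the deposited worksheets, with no unit. Identifiers in the main block of numbers (20175) were used; others held 11 counts in the CD68+ segments and stayed out.

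Identifiers were kept by filterByExpr (minimum count 10) and scaled by TMM in edgeR 4.0.16 (R 4.3.3); log2 CPM used a prior count of 2. With 1 animal per section no count model was fitted; DESeq2 1.42.0 gave size factors for an alternative. Intervals are exact binomial. Both segments of a region share its number and were paired. Peri-injured and air regions come from different sections and could not be paired.

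Per comparison, the text names the 2 largest differences each way among calls above the median level, the 3 most abundant identifiers, the 2 with the most counts in 1 segment, and RTS0076055. Members and lists were chosen with earlier results of these data known. The gene lists prepared for lung cell types and pathways were not evaluated, since no identifier could be named.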

Additional observations from a re-analysis of the deposited data

Results flagged for a closer look

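Among 97 groups of 4 segments, formed by the named identifiers and groups, 8 had a segment set apart from the other 3 by a gap past Dixon's 95% critical value, which chance passes in about 1 in 20 groups. RTS0070823 and RTS0068006 were named because 1 segment held most of their counts, so their values in peri-injured region 7 follow from that choice and do not count against this rate. The remaining flags are about as many as this rate gives. In CD68+ segments of peri-injured region 7, RTS0070823 stood at 4719 CPM (27.4 to 109 CPM in the other peri-injured regions) and RTS0068006 at 3388 CPM (19.5 to 27.4 CPM in the others). RTS0067777 stood at 6431 CPM in peri-injured region 15, against 7128 to 7248 CPM in the other peri-injured regions. RTS0081052 stood at 738 CPM in the CD68+ segment of air region 8 (26.6 to 132 CPM in the other air regions) and at 456 CPM in that of injured region 2 (265 to 286 CPM in the other injured regions). RTS0076055 stood at 2253 CPM in the CD68+ segment of injured region 9, against 167 to 303 CPM in the other injured regions. In CD45- segments, RTS0070823 stood at 112 CPM in air region 11, from 6 counts (22.5 to 33.3 CPM in the other air regions, from 1 count each). RTS0081477 stood at 0 CPM in air region 10 (99.9 to 113 CPM in the others), with 4, 0, 6 and 3 counts in air regions 8, 10, 11 and 12. No cause of these values was tested.

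For RTS0068724 the log2 ratio of CD68+ to CD45- segments was below 0 in every peri-injured region (-0.17, -1.07, -0.22 and -0.27 in regions 5, 6, 7 and 15) and above 0 in every air region (2.08, 2.25, 2.70 and 0.25 in regions 8, 10, 11 and 12), a contrast of -2.25. The segment types were scaled separately, so where 0 lies depends on the scaling and only the contrast is compared. With 1 animal per section this contrast was not tested. Its CD68+ level was 251 ± 58.6 CPM in peri-injured segments, against 153 ± 74.98 CPM in air segments (SD, n = 4 regions each). The CD45- level was 367 ± 55.5 CPM in peri-injured segments, against 36.7 ± 43.7 CPM in air segments, the air value from 5 counts.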

How the results depend on the processing

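The calls numbered 22 in CD68+ segments, 38 in CD45- segments and 13 in the ratio within regions, of 330, 746 and 290 identifiers kept. With no filter they became 146, 330 and 406, of 20157, 20174 and 20156. On the identifiers kept they were 10, 16 and 5 with a prior count of 10. When a 1.5-fold difference sufficed they were 44, 85 and 25. With a mean of at least 200 CPM as the filter the CD45- count was 21 of 330. Leaving out each region in turn gave 24 to 33, 32 to 85 and 10 to 28 calls, of 343 to 387, 469 to 1637 and 282 to 365 identifiers kept. On the identifiers kept with all 8 regions, an alternative added after seeing the data, the CD68+ count was 22 to 29. Read with no pairing of the segments by region (no replicate block), the ratio had 3 calls, under a stricter rule that can only lower the count. No blocked comparison of peri-injured with air regions was possible because they come from different sections, each taken as 1 animal. With total counts as the scale the CD68+ calls numbered 22, of which 18 were shared with those under TMM; with upper quartile factors or DESeq2 size factors 22 were shared, with a prior count of 0.5 the count was 25, and from summed counts per section 24. Over 56 alternatives for the 4 named CD68+ identifiers, 49 differences moved by less than the spread between regions, 7 by more and 0 changed sign; with a prior count of 10 they were 1.89 for RTS0081477, 1.93 for RTS0066938, -2.33 for RTS0068460 and -1.79 for RTS0068462, and with 0.5 they were 4.03, 2.20, -3.92 and -3.26 in the same order. Depth limits the comparison to 330 of 20157 identifiers.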
